A study of Homo sapiens with 8 samples.

Results

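The miR-320 family was followed in colorectal carcinoma cells grown as multicellular spheroids (MCS) and as monolayers (2D). Its 5 mature members, hsa-miR-320a, hsa-miR-320b, hsa-miR-320c, hsa-miR-320d and hsa-miR-320e, were taken by name from a count table of 1780 mature miRNAs, and all 5 had an entry. Small RNA was sequenced from DLD1 and HT29, both established human colorectal adenocarcinoma cell lines, after 6 days in 2D or MCS, with 2 biological replicates for each line and culture and 8 libraries in all. DLD1 was seeded at 35000 cells per flask for 2D and at 7000 cells per agarose-coated well for MCS, and HT29 at 100000 and 3500 cells. DLD1 was grown in RPMI and sequenced with version 3 of the library kit, and HT29 was grown in DMEM and sequenced with version 2. The line, the medium and the kit therefore cannot be told apart, and MCS was compared to 2D within each line.

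MiRNAs are small RNAs that bind Argonaute proteins and repress mRNAs that pair with their seed, which is read here as bases 2 to 8 from the 5′ end. Most are cut from a long primary transcript by the nuclear enzyme Drosha and then from a hairpin by Dicer. The miR-320 hairpin is the best known exception: its 5′ end is the capped start of the transcript itself, so Dicer is needed but Drosha is not, and only the 3′ arm is loaded. This route is best established for miR-320a and is taken for the other members from their likeness. Neither Drosha nor the cap was measured in these libraries, and "Drosha-independent" is used below as background and not as a result.

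The mature sequences are shown because they decide which reads can be told apart. RefSeq sequences (GRCh38.p14) were found for 4 of the 5 members, all but miR-320a, and are written 5′ to 3′ with the seed in capitals. The last line is miR-4429, the only other name among these reference sequences with the seed of miR-320b.
miR-320b: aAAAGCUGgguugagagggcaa
miR-320c: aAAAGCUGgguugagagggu
miR-320d: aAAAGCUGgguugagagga
miR-320e: aAAGCUGGguugagaagg
miR-4429: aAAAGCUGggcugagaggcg

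The seed AAAGCUG was shared by miR-320b, miR-320c, miR-320d and miR-4429, and by no other of 2370 mature names in the sequence table. MiR-320a had no entry there, so its seed and its likeness to the other members were not read. Its absence from this comparison does not mean that it lacks the seed. Counting positions from 1 at the 5′ end of miR-320b, miR-320c (20 bases) differed from miR-320b (22 bases) by C20U and miR-320d (19 bases) by G19A. Their first 19 and 18 bases were the same as those of miR-320b. MiR-320e (18 bases) began at base 2 of miR-320b and carried G17A, so its own bases 2 to 8 read AAGCUGG. MiR-4429 differed by U11C, G19C and C20G. Members b, c and d thus differ only in their last bases. Reads of 15 nt or longer had been kept, and a read that stops before those last bases matches several members. How such reads were counted is not given in the sources used here. For this reason the 5 members were also summed into 1 value. If each read was counted once, this value holds for any division of reads among them.

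The family is read from hairpins spread over many chromosomes. In GRCh37, the build of the deposited counts, the miR-320b hairpins lie at chr1:117214371-117214449 (plus strand, outside annotated host genes) and chr1:224444706-224444843 (minus strand, in an intron of NVL). The miR-320c hairpins lie at chr18:19263471-19263558 and chr18:21901650-21901699, both on the plus strand, within introns of ABHD3 and OSBPL1A that are transcribed from the opposite strand. Those of miR-320d lie at chr13:41301964-41302011 and chrX:140008337-140008384, both on the minus strand and outside annotated host genes, and that of miR-320e at chr19:47212550-47212602 in an intron of PRKD2 on the same strand. The hairpins of miR-320d are printed because this member gave the only call below. They are the RefSeq hairpins of 72 bases, which reach further than the GRCh37 intervals given above. The mature part is in capitals, begins at base 42 in each and lies in the 3′ arm.
MIR320D1: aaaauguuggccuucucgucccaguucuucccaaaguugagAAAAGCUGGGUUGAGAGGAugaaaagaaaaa
MIR320D2: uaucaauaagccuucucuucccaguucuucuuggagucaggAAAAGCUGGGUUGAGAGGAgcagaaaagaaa
Both hairpins hold the same mature sequence, so reads of miR-320d cannot be assigned to either of them.

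Total counts on miRNAs ran from 10495634 to 26211524 per library. The replicates of DLD1 lay closer to each other than those of HT29, with a biological coefficient of variation of 0.193 in DLD1 and 0.521 in HT29. In replicate 1 of HT29 a single miRNA, miR-10a-5p, took 47.3% of the counts in 2D and 38.5% in MCS. All 6 epithelial marker miRNAs of the gut were present, with a summed level of 64706 to 239857 CPM (counts per 1000000 counts of the library) over the 8 libraries. It was higher in both DLD1 MCS libraries (164502 to 165878 CPM) than in both 2D libraries (89302 to 104674 CPM). Markers of liver and neurons stayed under 1 CPM, those of smooth muscle and stroma at or under 10.8 CPM, and those of muscle at or under 91.2 CPM. For blood cells 3 of 4 markers had an entry: their sum in HT29 was 6.38 to 11.6 CPM in 2D and 38.4 to 64.2 CPM in MCS. The higher sum in HT29 MCS came from miR-150-5p, which had 0 to 1094 counts over the libraries. The red cell markers miR-451a and miR-144-3p had at most 14 and 5 counts in any library. The part of these differences in the results below was not tested.

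MiR-320a, the most abundant member, made up 97.0% to 97.9% of the family's counts in every library. Its raw counts were 162627 and 295397 in DLD1 2D, 194275 and 190305 in DLD1 MCS, 20542 and 124170 in HT29 2D, and 20006 and 63047 in HT29 MCS. As a share of all miRNA counts of the library, it was 1.03% (95% Wilson interval 1.02% to 1.03%) and 1.16% (1.16% to 1.16%) in DLD1 2D, and 1.08% (1.07% to 1.08%) and 0.930% (0.926% to 0.934%) in DLD1 MCS. In HT29 the share was 0.196% (0.193% to 0.198%) and 0.474% (0.471% to 0.476%) in 2D, and 0.186% (0.184% to 0.189%) and 0.367% (0.364% to 0.370%) in MCS. These intervals cover counting error only and are far narrower than the distance between replicates. By this plain share the cultures overlapped in both lines. Here and below, the level of a culture is a mean over all its cells, so fewer cells with the miRNA and less of it per cell cannot be told apart.

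For the tests, CPM were scaled by upper quartile factors over all miRNAs detected in the line. In DLD1 the normalized level of miR-320a was 9272 and 9932 CPM in 2D and 10382 and 12469 CPM in MCS. Both MCS libraries lay above both 2D libraries, and so did those of 45.4% of the 346 miRNAs tested in DLD1, where groups lay apart in either direction for 70.8%. The means were 9602 ± 467 CPM in 2D and 11425 ± 1476 CPM in MCS (SD, n = 2), and the log2 fold change was 0.25 (SE 0.27, adjusted p = 0.459 by the quasi-likelihood test of edgeR, adjusted after Benjamini and Hochberg over all tested miRNAs). The test was not passed, and this change stood close to the middle of all tested miRNAs, whose median was 0.23.

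In HT29 miR-320a pointed the other way. Its level was 3747 and 2853 CPM in 2D and 2511 and 2359 CPM in MCS. Both MCS libraries lay below both 2D libraries, as they did for 10.6% of the 301 miRNAs tested in HT29, where groups lay apart in either direction for 28.6%. The means were 3300 ± 632 and 2435 ± 108 CPM (SD, n = 2), and the log2 fold change was -0.44 (SE 0.42, adjusted p = 0.977 by edgeR). No miRNA at all was called in HT29 by this test, which returned 0% of 301 at the adjusted threshold and 12 miRNAs (3.99%) at an unadjusted p under 0.05. Other tools called 5 (edgeR's exact test) and 12 (DESeq2). A fit that paired equal replicate numbers (replicate block) called 47. No member of the family was among any of these, and miR-320a had -0.43 with the block (adjusted p = 0.455 by edgeR). On simulated counts with the spread of each line, the main test called 5 of 36 changed miRNAs in HT29, against 62 of 62 in DLD1. A test not passed in HT29 therefore says little about whether a miRNA changed.

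**Figure D1:**
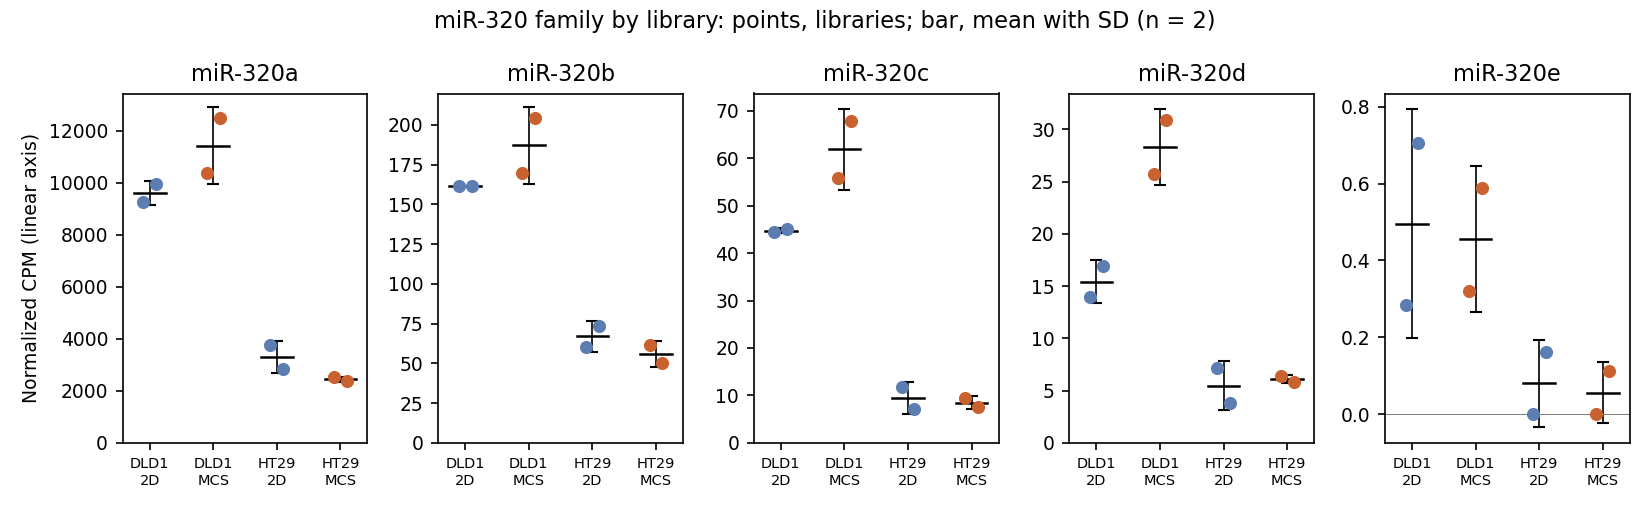
Normalized CPM of the 5 members of the miR-320 family in each library, on a linear axis with its own range for each member; points are libraries, the horizontal bar is the mean and the whiskers the SD (n = 2). Both DLD1 MCS libraries lie above both 2D libraries for members a to d, as for 45.4% of all tested miRNAs. In HT29 only miR-320a shows groups that do not overlap, with MCS below 2D, as for 10.6% of all tested miRNAs.

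MiR-320b, the next in abundance, carried raw counts of 2831 to 4795 in DLD1 and 330 to 3205 in HT29. In DLD1 its normalized level was 161 and 161 CPM in 2D against 170 and 204 CPM in MCS, and the log2 fold change was 0.21 (SE 0.25, adjusted p = 0.492 by edgeR). The groups did not overlap, but the change did not pass the test and differed from the median of all tested miRNAs by -0.015. As a plain share of the library the order turned: 0.0179% and 0.0188% in DLD1 2D, and 0.0176% and 0.0152% in DLD1 MCS. In HT29 the level was 60.2 and 73.7 CPM in 2D and 61.6 and 50.3 CPM in MCS, with a log2 fold change of -0.26 (SE 0.47, adjusted p = 0.977 by edgeR). These groups overlapped.

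MiR-320c was present at 44.4 and 45.1 CPM in DLD1 2D and at 55.8 and 67.9 CPM in DLD1 MCS. Both MCS libraries were higher, by 0.47 on the log2 scale (SE 0.29, adjusted p = 0.193 by edgeR), which did not pass the test. As a plain share of the library the groups overlapped, with 0.00492% and 0.00526% in DLD1 2D and 0.00578% and 0.00507% in DLD1 MCS. In HT29 it had 65 to 311 counts per library and 7.15 to 11.9 CPM, with overlapping groups. Its mean share of the library was under 10 CPM there, the minimum for testing, so no test was made in HT29.

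MiR-320d was the only member called. Its raw counts in DLD1 were 245 and 503 in 2D and 482 and 472 in MCS, and its level was 14.0 and 16.9 CPM in 2D and 25.8 and 30.9 CPM in MCS. The lower MCS library stood clearly above the higher 2D library. The means were 15.4 ± 2.08 and 28.3 ± 3.65 CPM (SD, n = 2), a rise of 1.83-fold (log2 fold change 0.87, SE 0.34, adjusted p = 0.0260 by edgeR). This 1 call among 4 tested members is to be read against 29.8% of tested miRNAs that were called up in DLD1, and 41.3% called in either direction. Without adjustment it was likewise the 1 of 4 members with a p under 0.05, against 48.6% of all tested miRNAs. The rise did not pass the adjusted threshold under any of the 4 other scalings, as with TMM factors (0.66, adjusted p = 0.0746 by edgeR) or library totals alone (0.50, adjusted p = 0.245 by edgeR), nor with any 1 of the 4 DLD1 libraries left out, where the log2 fold change was 0.61 to 0.90. In HT29 miR-320d had 39 to 165 counts and 7.11 and 3.79 CPM in 2D against 6.40 and 5.80 CPM in MCS. Those groups overlapped, and it was not tested there.

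MiR-320e, the member with the shifted seed, was at the limit of detection. It had 5, 21, 6 and 9 counts in the 4 DLD1 libraries, 0 and 7 counts in HT29 2D, and 0 and 3 counts in HT29 MCS. A count of 0 allowed up to 3 counts, or 0.286 CPM in replicate 1 of HT29 2D and 0.279 CPM in replicate 1 of HT29 MCS. No difference was detectable at this depth. MiR-4429, which shares the seed of miR-320b, had 26 to 44 counts in DLD1 and 3 to 15 in HT29, and was not tested in either line. Ordered by level, the members stood as a, b, c, d, e in every library, each well apart from the next in DLD1. Of neighbouring members in HT29 only c and d came near each other, with 7.15 to 11.9 CPM against 3.79 to 7.11 CPM, so that the highest library of miR-320d nearly touched the lowest of miR-320c.

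With the 5 members summed, the family stood at 9492 and 10156 CPM in DLD1 2D and at 10633 and 12773 CPM in DLD1 MCS. The log2 fold change was 0.25 (SE 0.27, adjusted p = 0.459 by edgeR). In HT29 the sum was 3826 and 2938 CPM in 2D and 2589 and 2423 CPM in MCS, a log2 fold change of -0.43 (SE 0.41, adjusted p = 0.977 by edgeR). Neither sum passed the test. Because miR-320a supplies nearly all of the reads, the sum follows it, and any change of members c and d is lost in it.

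The response of the lines was compared directly. The log2 response of miR-320a in HT29 differed from that in DLD1 by -0.71 (SE 0.38, adjusted p = 0.674 by edgeR's test of the interaction), and that of the sum by -0.70 (SE 0.37, adjusted p = 0.676 by edgeR). For miR-320b the difference was -0.49 (SE 0.43, adjusted p = 0.794 by edgeR). With library totals alone the difference shrank to -0.15 for miR-320a and for the sum, and with the quartile over tested miRNAs only to -0.18 and -0.15. Leaving out replicate 1 of HT29 2D brought miR-320a to -0.47 and the sum to -0.47. None passed the adjusted threshold, nor did any of the 250 miRNAs tested in both lines (0%). Among those, 23 (9.2%) had an unadjusted p under 0.05, and DESeq2 called 21. For 8 of the 250 (3.2%), miR-320a included, groups lay apart in both lines in opposite directions.

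How far the DLD1 values can be read as a rise depends on the scaling. The median log2 fold change of all tested miRNAs in DLD1 was 0.23 with the upper quartile used here, 0.024 with TMM factors, -0.14 with library totals alone and -0.22 with an upper quartile over tested miRNAs only. The log2 fold change of miR-320a moved with it to 0.043, -0.13 and -0.21, and that of miR-320b to 0.0069, -0.16 and -0.25, so the sign of both turned. With the scaling used here and 1 DLD1 library left out, miR-320a was lowest at 0.071 without replicate 1 of 2D and at 0.050 without replicate 2 of MCS. Relative to that median, miR-320a in DLD1 was higher by 0.012 to 0.023 under these 4 scalings, miR-320c by 0.23 to 0.24 and miR-320d by 0.63 to 0.65. In HT29 miR-320a stayed lower under all 4 of them, with log2 fold changes of -0.44, -0.49, -0.28 and -0.67 in the same order. With 1 HT29 library left out, the value ranged from -0.24 (without replicate 1 of 2D) to -0.71 (without replicate 2 of 2D). None of these HT29 values passed the test.

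**Figure D2:**
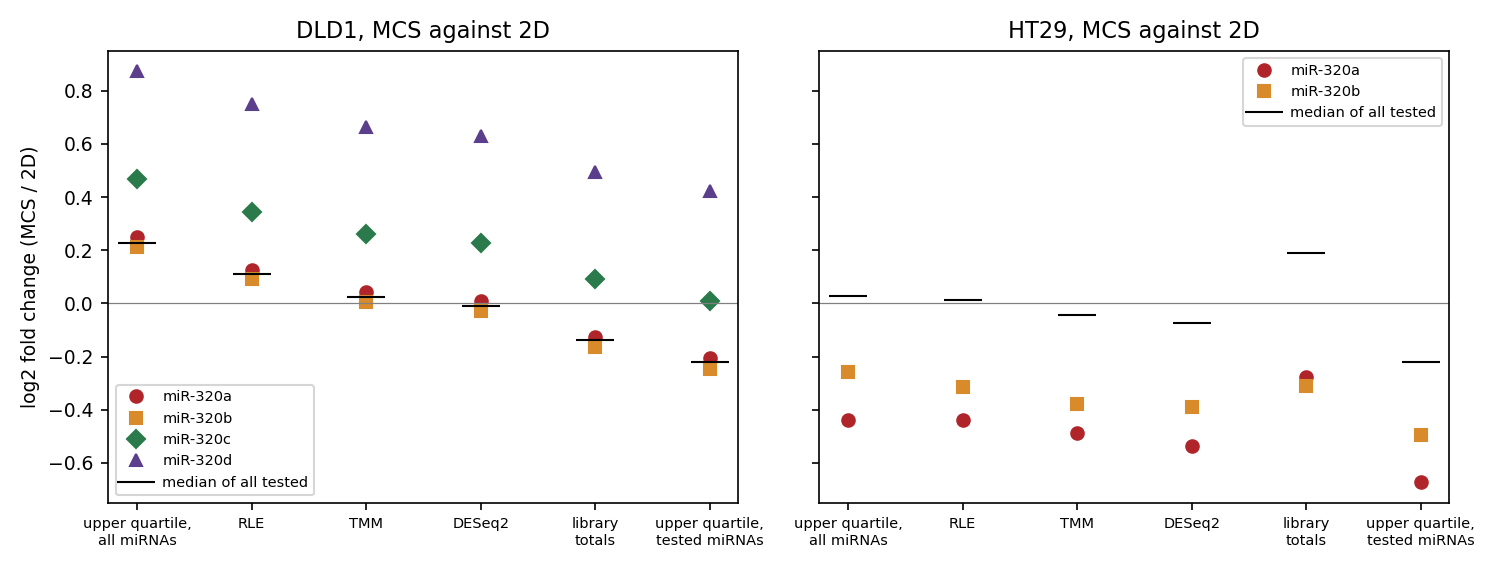
Log2 fold change (MCS against 2D) of the tested members of the miR-320 family under 6 scalings or tools in DLD1 (left) and HT29 (right); short lines are the median of all tested miRNAs. In DLD1 miR-320a and miR-320b sit on the median under each scaling, from 0.25 and 0.21 down to -0.21 and -0.25, while miR-320d stays above it, and in HT29 miR-320a and miR-320b lie below 0 under each.

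A ratio of members within a library needs no scaling between libraries. For every 10000 reads of miR-320a there were 174 and 162 reads of miR-320b in DLD1 2D and 163 and 164 in DLD1 MCS. In HT29 there were 161 and 258 in 2D and 245 and 213 in MCS. Culture groups overlapped in both lines, and the difference over both lines was 0.065 on the log2 scale (exact permutation test within lines, two-sided, p = 0.889).

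The ratio of miR-320d to miR-320a was higher in MCS in both lines. In DLD1 there were 15.1 (95% Wilson interval 13.3 to 17.1) and 17.0 (15.6 to 18.6) reads of miR-320d per 10000 of miR-320a in 2D, and 24.8 (22.7 to 27.1) and 24.8 (22.7 to 27.1) in MCS. In HT29 there were 19.0 (13.9 to 26.0) and 13.3 (11.4 to 15.5) in 2D, and 25.5 (19.4 to 33.5) and 24.6 (21 to 28.8) in MCS. All 4 MCS libraries exceeded all 4 2D libraries. In HT29 the counting interval of replicate 1 in 2D reached those of both MCS libraries. The ratio was 1.55-fold higher in DLD1 MCS (log2 difference 0.63) and 1.58-fold higher in HT29 MCS (0.66). With 2 libraries against 2, the exact permutation test cannot go below p = 0.333, which both lines gave. With labels permuted within both lines together, p was 0.0556 (exact permutation test, two-sided, difference 0.64, 1.56-fold), the smallest value that the design allows, and 0.111 after adjustment over the 4 ratios tested. The difference stayed positive with any 1 library left out, at 0.54 to 0.72 in DLD1 and at 0.40 (without replicate 2 of 2D) to 0.91 (without replicate 1 of 2D) in HT29.

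MiR-320c showed the same order with a smaller distance. There were 47.8 and 45.4 reads per 10000 of miR-320a in DLD1 2D and 53.8 and 54.5 in DLD1 MCS, a log2 difference of 0.22. In HT29 there were 31.6 and 25.0 in 2D and 37.5 and 32.0 in MCS, a log2 difference of 0.30, with the nearest libraries of the cultures almost touching. That HT29 difference fell to 0.13 without replicate 2 of 2D and rose to 0.47 without replicate 1 of 2D. Over both lines the difference was 0.26, again at the smallest exact permutation p of 0.0556 (0.111 adjusted over the 4 ratios). Unlike the family sum, these ratios depend on the division among members of reads that match several of them, which was not tested.

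**Figure D3:**
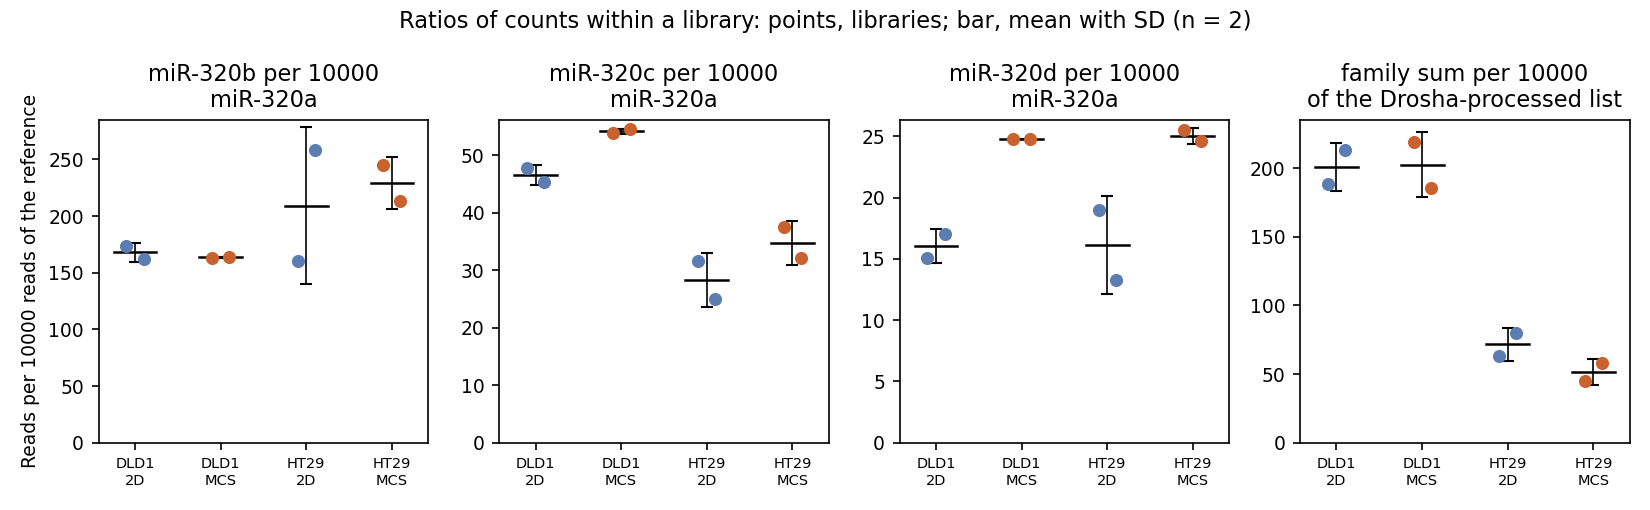
Reads of miR-320b, miR-320c and miR-320d per 10000 reads of miR-320a, and of the summed family per 10000 reads of 30 Drosha-processed miRNAs, in each library; points are libraries, bars the mean and whiskers the SD (n = 2), on linear axes that start at 0. For miR-320d all 4 MCS libraries (24.6 to 25.5) lie above all 4 2D libraries (13.3 to 19.0), whereas miR-320b overlaps between cultures in both lines.

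The family was then set beside Drosha-processed miRNAs. A list of 30 abundant miRNAs known to be cut by Drosha held members of the let-7, miR-17-92, miR-200, miR-23a, miR-30, miR-183, miR-192 and miR-221 groups. In DLD1, 14 of the 30 were up-regulated in MCS, 3 were down-regulated and 13 were not called, against 29.8% up and 11.6% down among all tested miRNAs. The median log2 fold change of the list was 0.50, against 0.23 over all tested, and its values reached from -2.50 to 2.34. Of the 30, 23 had a positive log2 fold change, against 212 of the 346 miRNAs tested. Groups lay apart upward for 18 and downward for 5, against 45.4% and 25.4% of all tested. Most of the list, though not all of it, thus pointed upward under this scaling. The values of miR-320a to miR-320d, from 0.21 to 0.87, lay inside its range. In HT29 none of the 30 was called. Their median was 0.19 against 0.029 over all tested, 18 of the 30 had a positive log2 fold change, and groups lay apart upward for 8 and downward for 1, against 17.9% and 10.6% of all tested.

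The 4 miRNAs of that list with the highest mean level over the 8 libraries of both lines show this spread. In DLD1 alone miR-192-5p, at a mean of 691 CPM in 2D and 3503 CPM in MCS, ranked far lower than it did in HT29. MiR-21-5p, a widely raised miRNA in carcinomas, was at 258661 and 215752 CPM in DLD1 2D and at 115952 and 202019 CPM in DLD1 MCS, with a log2 fold change of -0.58 (SE 0.38, adjusted p = 0.219 by edgeR), and at -0.21 (SE 0.81) in HT29. MiR-200b-3p and miR-200c-3p, which hold epithelial identity by repressing ZEB factors, rose in DLD1 MCS by 1.26 (SE 0.32, adjusted p = 0.000539 by edgeR) and 1.04 (SE 0.34, adjusted p = 0.00712 by edgeR), and had log2 fold changes of -0.12 (SE 0.60) and -0.072 (SE 0.57) in HT29. MiR-192-5p, a marker of gut epithelium, rose in DLD1 MCS by 2.34 (SE 0.24, adjusted p = 6.15e-19 by edgeR) and had a log2 fold change of 1.47 (SE 0.80, adjusted p = 0.977 by edgeR) in HT29.

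**Figure D4:**
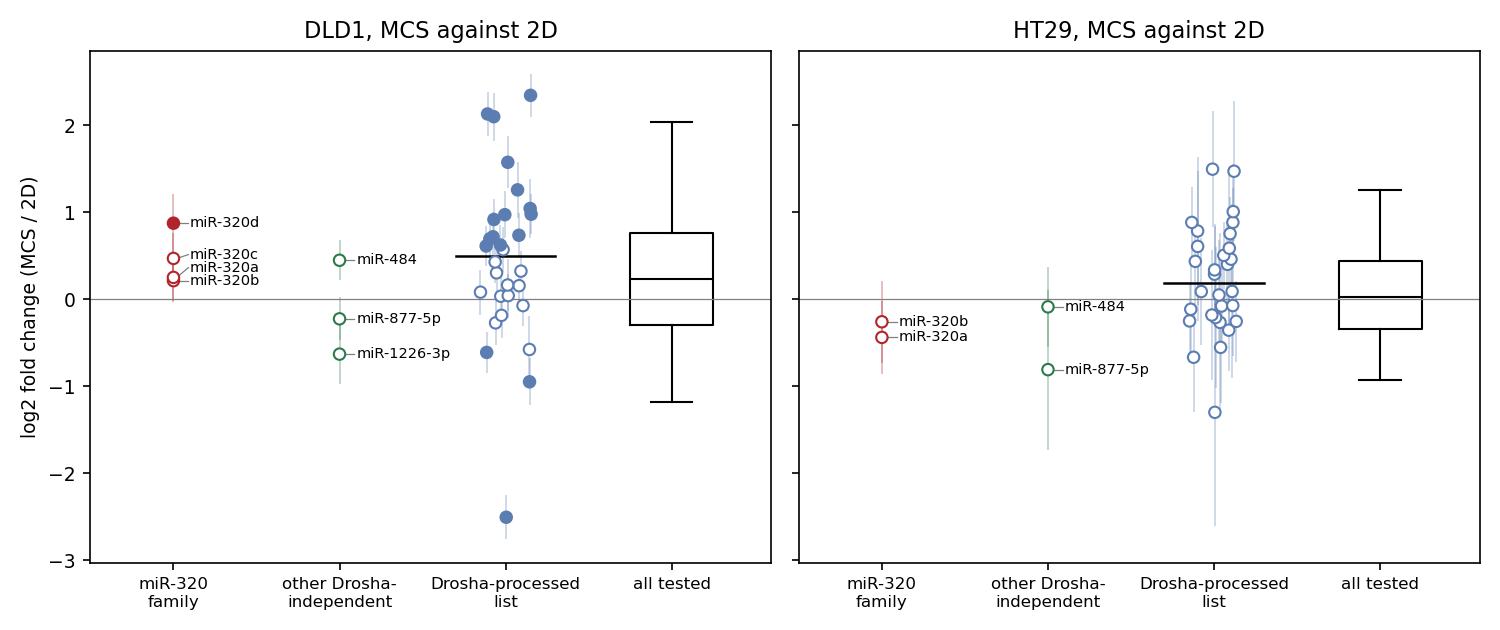
Log2 fold change (MCS against 2D) with its SE for the tested members of the miR-320 family, the other Drosha-independent miRNAs, the 30 Drosha-processed miRNAs (line at the median) and all tested miRNAs (box with quartiles, whiskers from the 5th to the 95th percentile) in DLD1 (left) and HT29 (right); filled points were called. In DLD1 the Drosha-processed miRNAs spread from -2.50 to 2.34 around the family, and in HT29 no point is filled.

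Directly per read, the summed family amounted to 188 and 213 reads per 10000 reads of the 30 Drosha-processed miRNAs in DLD1 2D and to 219 and 186 in DLD1 MCS. These values overlapped, with a log2 difference of 0.0097 (exact permutation p = 1). In HT29 there were 63.1 and 80.3 in 2D and 44.9 and 58.2 in MCS. Both HT29 MCS libraries were lower, by 0.48 on the log2 scale or 1.39-fold, at the smallest possible exact permutation p of 0.333. Over both lines the difference was -0.23 (exact permutation test, two-sided, p = 0.278, and 0.370 adjusted over the 4 ratios). That sum gives the abundant miRNAs of the list the most weight. With the mean of the log2 counts of the 30 in place of their sum, so that each counts alike, the difference was -0.20 in DLD1, -0.67 in HT29 and -0.44 over both lines, where it stood at the smallest p the exact permutation test allows, 0.0556. The family was thus lower against the list in HT29 by both measures, and in DLD1 only by the second. Neither within a line nor over both lines could the exact permutation test have passed 0.05, and the 0.0556 of the second measure was not adjusted over the ratios. In HT29 the first measure fell to -0.30 without replicate 2 of 2D and to -0.29 without replicate 1 of MCS.

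Other miRNAs known to bypass Drosha were few. MiR-484, which like miR-320a arises from a capped precursor (GRCh37 chr16:15737151-15737229, in an exon of NDE1), does not share the seed of the family.
miR-484: uCAGGCUCaguccccucccgau
In DLD1 it stood at 658 and 698 CPM in 2D and at 893 and 957 CPM in MCS. Both MCS libraries were higher, with a log2 fold change of 0.45 (SE 0.23, adjusted p = 0.106 by edgeR). In HT29 it stood at 387 and 241 CPM in 2D and at 273 and 318 CPM in MCS, with overlapping groups and a log2 fold change of -0.087 (SE 0.46, adjusted p = 0.977 by edgeR). Its response in HT29 differed from that in DLD1 by -0.56 (SE 0.44, adjusted p = 0.754 by edgeR).

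The mirtrons replace the cut by Drosha with splicing of a short intron. Of 9 other Drosha-independent names listed, miR-484 included, 8 had an entry and 3 were tested in DLD1. Of these 3, 0 were called, against 41.3% of all tested miRNAs, and 0 had an unadjusted p under 0.05, against 48.6%. With 3 tested this count says little about such miRNAs. MiR-877-5p, from an intron of ABCF1 (GRCh37 chr6:30552109-30552194), was at 167 and 154 CPM in DLD1 2D and at 131 and 144 CPM in MCS, with a log2 fold change of -0.23 (SE 0.25, adjusted p = 0.479 by edgeR). MiR-1226-3p was at 18.5 and 21.3 CPM in 2D and at 13.2 and 12.5 CPM in MCS, with a log2 fold change of -0.63 (SE 0.35, adjusted p = 0.133 by edgeR). Under the main scaling both mirtrons were lower in both DLD1 MCS libraries, as were 25.4% of all tested miRNAs. MiR-484 and the members a to d were higher, as were 45.4%. Under library totals alone and under an upper quartile taken over tested miRNAs both mirtrons were called lower in DLD1, as were 83 and 93 of all 346 tested miRNAs. With TMM factors miR-1226-3p was called lower, as were 62 of the 346. Under library totals and the upper quartile over tested miRNAs, miR-320a (-0.13 and -0.21) and miR-320b (-0.16 and -0.25) were lower too, without a call. MiR-484 in DLD1 ranged from 0.0015 to 0.45 over the settings that kept all libraries. In HT29 miR-877-5p had 215 and 46.4 CPM in 2D and 107 and 42.6 CPM in MCS (log2 fold change -0.81, SE 0.92, adjusted p = 0.977 by edgeR), with each culture's replicates far apart. MiR-1226-3p was not tested there.

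Finally, the miRNAs whose pattern over the 8 libraries was most like that of miR-320a were ranked by Pearson's r of log2 CPM centred within each line. Among 248 miRNAs tested in both lines, miR-106b-3p (r = 0.91), miR-577 (0.89), miR-20a-5p (0.89), miR-100-5p (0.86) and miR-181b-3p (0.85) came first. The correlation with miR-320b was 0.53 and that with miR-484 was 0.66, at rank 33. The 8 points share lines, libraries and scaling factors, so these values describe the present libraries only. MiR-106b-3p, the passenger strand of a hairpin in the miR-106b-25 cluster, had a log2 fold change of 0.39 (SE 0.23, adjusted p = 0.153 by edgeR) in DLD1 and of -0.40 (SE 0.47, adjusted p = 0.977 by edgeR) in HT29, close to the values of miR-320a. MiR-20a-5p, of the miR-17-92 cluster, had 0.43 in DLD1 and -0.67 in HT29. In contrast, miR-100-5p had 0.14 in DLD1 and -4.98 in HT29 (SE 1.39, adjusted p = 0.642 by edgeR), a much wider distance than that of miR-320a.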

How the data were processed

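Per the paper's methods and the labels, the authors removed adapters with Cutadapt, kept reads of at least 15 nt, aligned them to GRCh37 with Bowtie2 and then to mature miRNAs of miRBase, and deposited raw counts per mature miRNA for each library. The series table and the single-library tables were compared over 12512 values, of which 0 differed. In total 15 entries naming no miRNA (2590 counts in replicate 2 of HT29 2D, 0.00988% of it) were left out. Libraries were grouped by the line and culture in their labels, with 2 biological replicates per group. For the abundant members the spread between replicates sets the precision, and for miR-320e, and miR-320c and miR-320d in HT29, low counts limit it too.

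Counts were tested with edgeR 4.0.16 (R 4.3.3) by the quasi-likelihood test within each line, restricted to miRNAs whose mean reached 10 CPM, using upper quartile factors from every miRNA with a count of 1 or more. Calls required a 1.5-fold change or more together with an adjusted p under 0.05. Normalized CPM are counts over the library total times its factor. Ratios were tested by exact permutation. The quasi-likelihood test was tried on simulated counts with known changes, all larger than those of the tested members of the family. In DLD1, 62 of 62 changed miRNAs were called and 0 unchanged ones. In HT29, 5 of 36 changed miRNAs were called and 2 unchanged ones. Python 3.11.15 with scipy 1.17.1 was used for the rest. The alternatives were other scalings (TMM, RLE, library totals, upper quartile over tested miRNAs), edgeR's exact test, DESeq2 1.42.0, other filters, no fold threshold, a replicate block, a single fit of all libraries, and the omission of each library.

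The family, the lists and the tests were chosen with earlier results of these data known. Named were the 5 members, other names with the seed of the family, the tested Drosha-independent miRNAs, the 4 of the Drosha-processed list with the highest mean CPM over all 8 libraries, and the 5 miRNAs most like miR-320a. The rule called for the seed of miR-320a, and that of miR-320b was used in its place because no sequence was found for miR-320a. Sequences are from RefSeq and positions from GENCODE lifted to GRCh37.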

Additional observations from a re-analysis of the deposited data

Results flagged for a closer look

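The response of miR-320a to MCS differed between the lines by -0.71 on the log2 scale (HT29 minus DLD1), and that of the summed family by -0.70. Both were marked because each MCS library lay above each 2D library in DLD1 and below it in HT29, as for 8 of 250 miRNAs (3.2%). With library totals alone both differences shrank to -0.15. The test of the difference itself was not passed (adjusted p = 0.674 and 0.676 by edgeR's interaction), and the DLD1 direction turned with library totals alone and with an upper quartile taken over tested miRNAs.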

How the results depend on the processing

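The call of miR-320d in DLD1 held with edgeR's exact test, with 10 CPM in every library and without a fold threshold. The number of members called fell from 1 to 0 with TMM or RLE factors, library totals, the upper quartile over tested miRNAs, DESeq2, no filter and all libraries in 1 fit, and was 0 to 0 with each library left out. With library totals and the upper quartile over tested miRNAs, the DLD1 log2 fold change turned to -0.12 and -0.20 for the sum, -0.13 and -0.21 for miR-320a, and -0.16 and -0.25 for miR-320b (-0.028 with DESeq2). The difference between lines turned to 0.033 for miR-320b with the second of these, and with library totals to 0.13 for miR-484 and 0.21 for miR-877-5p. In HT29 miR-484 turned to 0.21 with library totals. With 1 library left out, miR-484 was -0.48 to 0.29 and miR-877-5p -1.65 to 0.68 in HT29, and the difference for miR-877-5p -1.35 to 0.93, each highest and reversed without replicate 1 of HT29 2D. For the ratio of miR-320b to miR-320a, the log2 difference (MCS minus 2D) was also taken with 1 library left out. It was -0.089 to 0.012 in DLD1, -0.17 to 0.51 in HT29 and -0.11 to 0.24 over both lines. The sign turned in DLD1 without replicate 1 of DLD1 2D, and in HT29 and over both lines without replicate 1 of HT29 2D. For the ratio of the family to the Drosha-processed list, this difference in DLD1 was -0.11 to 0.13 with 1 library left out. It turned without replicate 1 of 2D or of MCS. With the mean of log2 counts it was -0.20 in DLD1 and -0.44 over both lines.

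Over all miRNAs the DLD1 calls split into 103 up and 40 down, against 76 and 62 with TMM, 89 and 50 with RLE, 60 and 83 with library totals, 49 and 93 with the upper quartile over tested miRNAs, and 71 and 65 with DESeq2. All libraries in 1 fit left 30 calls, and leaving out replicate 2 of DLD1 2D left 92. In HT29 the 0 calls became 15 without a filter and 0 to 2 with 1 library left out, and the 0 interaction calls became 5 without a filter. The labels number the replicates and do not say whether equal numbers in 2D and MCS were handled together. The differences between replicates 1 and 2 in 2D and in MCS were correlated over the tested miRNAs. The correlation was 0.34 in DLD1 (346 miRNAs) and 0.79 in HT29 (301 miRNAs). The main tests and the permutations did not use this pairing. With a replicate block 139 miRNAs were called in DLD1 (143 without), 47 in HT29 and 40 in the interaction. Members called with this block were 1 in DLD1 and 0 in HT29 and the interaction, and the sum was 0.25, -0.42 and -0.69. The cause of these changes was not tested.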
